A study of Mus musculus with 12 samples.

Results

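The nuclear RNA polymerases I, II and III and the mitochondrial RNA polymerase are described here through the genes of their subunits in mouse Th2 cells. Every gene in the RNA table whose symbol starts with Polr1, Polr2 or Polr3 and a letter, or with Polrmt, was taken if its mean over the 6 RNA libraries was at least 10 normalized counts. This gave 29 genes of the 25700 in the table, and of the 18074 that reach that mean. All 29 rows that match the symbol passed, the lowest being Polr3gl with a mean of 60.9, so no gene lay near the minimum. The symbol and the mean chose them, not a difference between genotypes, but the family was picked with earlier results of these data known, so its counts are descriptions. Normalized counts are the authors' gene counts adjusted for library size.

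Th2 cells are CD4 T cells that secrete type 2 cytokines in allergy, and the study concerns the transcription factor NRF2, encoded by Nfe2l2, in allergic asthma. RNA-seq was done on 3 WT and 3 cKO libraries, and ATAC-seq, a transposase assay of accessible DNA, on 3 WT and 3 cKO libraries. Strain, age, treatment, time, the driver of the Cre and the part of the gene that was deleted were not given in the sources used here. Whether the 3 libraries of a group came from separate animals or cultures was not stated either, so p-values measure the spread between these libraries, which may be technical.

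RNA polymerase I transcribes the large ribosomal RNA precursor, polymerase II the messenger RNAs, and polymerase III transfer RNAs, the small ribosomal RNA and other short RNAs. Each has a catalytic core built from its own pair of large subunits, and a set of small subunits is common to all of them. A separate single-subunit enzyme, encoded by Polrmt, transcribes the mitochondrial genome. In T cells, growth after activation goes with more ribosomal RNA and messenger RNA synthesis. The 29 genes fell into 5 subunits shared by the 3 nuclear polymerases, 2 shared by polymerases I and III, 3 of polymerase I, 7 of polymerase II, 10 of polymerase III, Polrmt, and Polr2m, which encodes a regulator bound to polymerase II.

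Each RNA library summed to between 6431081 and 7372007 normalized counts, and the depth in reads is unknown. Nfe2l2 had 169.9, 155.3 and 147.4 normalized counts in the WT libraries and 452.8, 326.4 and 391.5 in the cKO libraries, so it was higher in the libraries labelled cKO (limma adjusted p = 0.0438). The table holds a value per gene only, which does not show whether a part of Nfe2l2 is missing, and cKO below means the libraries labelled so. The Y-linked genes Ddx3y and Eif2s3y were listed at 0 in all 3 cKO libraries and at 116.8 to 140.5 in the WT libraries, so genotype and the sex of the donor animals cannot be told apart. T cell markers, 10 of 10 in the table, summed to 0.374% to 0.382% of the total in WT and 0.355% to 0.381% in cKO libraries. None of the 5 neutrophil markers was in the table, and B cell markers summed to at most 0.00665%. Mast cell, basophil and eosinophil markers, 2 of 6 in the table, summed to 0.000266% to 0.000403% in WT and 0.000482% to 0.000552% in cKO libraries, without overlap; Mcpt8, Fcer1a, Ms4a2 and Prg2 were not in the table. Proliferation markers, 10 of 10 in the table, summed to 0.0854% to 0.116% in WT and 0.0706% to 0.0788% in cKO libraries, without overlap. In 9 of those 10 the log2 change was negative. The part of these markers in the results below was not tested.

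As a group the subunit genes took a smaller share of the RNA in the cKO libraries. The 29 genes made up 0.281%, 0.262% and 0.286% of the total in the WT libraries and 0.243%, 0.246% and 0.240% in the cKO libraries, so the groups did not overlap. Another measure separated the libraries the same way: Spearman's rho across genes between a library's deviation from the gene mean and gene span was -0.032, -0.114 and -0.097 in WT and 0.1, -0.006 and 0.107 in cKO libraries. Its part in the share was not tested. The log2 change from WT to cKO was negative in 21 of the 29, where 45% of all genes tested were negative. Its median was -0.10 over the 29 and 0.06 over all genes tested. In limma, a linear model fitted across all 18074 genes on log2 of the normalized count plus 1, 1 of the 29 passed an adjusted p of 0.05 and it was lower in cKO, where 0.172% of all genes were called lower. None passed as higher, where 0.0332% of all genes did. In 11 of the 29 all 3 WT values lay above all 3 cKO values, which was so for 9.76% of all genes and 11.7% of genes with a mean of at least 50. In 0 of the 29 did all 3 cKO values lie above all 3 WT values, against 7.4% of all genes. In bulk libraries, fewer cells of a type and less RNA per cell cannot be told apart.

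**Figure D1:**
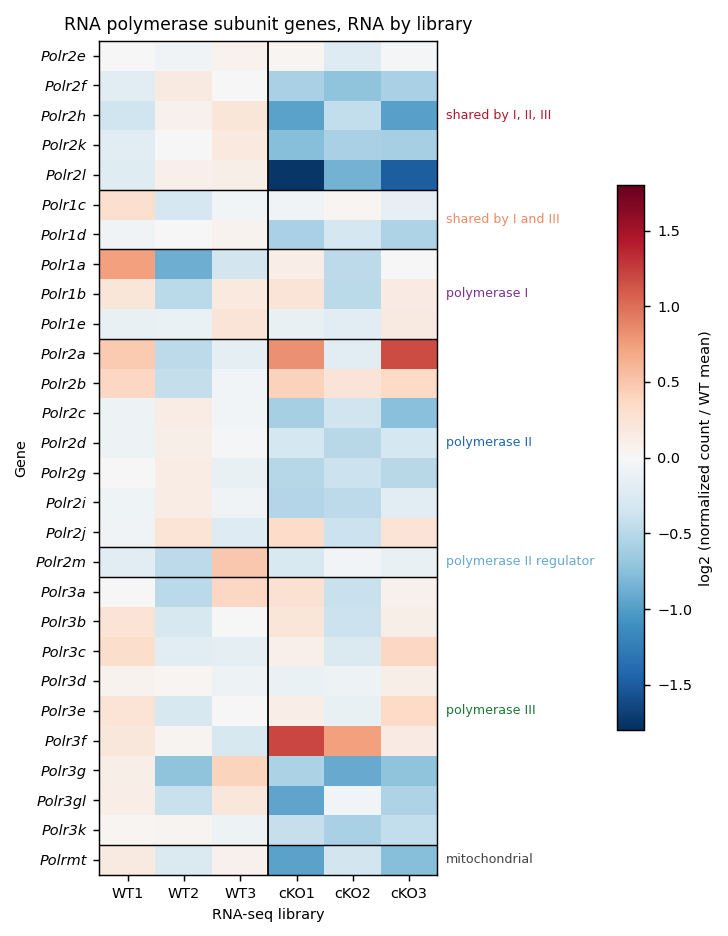
RNA of 28 of the subunit genes in each library, as log2 of the normalized count over the mean of the WT libraries. Columns are the 3 WT and 3 cKO libraries, rows the genes by role, with blue below and red above the WT mean. The blue cells gather in the cKO columns among the shared subunits other than Polr2e, and Polr2l is the darkest.

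Of the 5 subunits that all 3 nuclear polymerases share, Polr2l fell and 3 others, Polr2f, Polr2h and Polr2k, had all WT values above all cKO values. Such a separation was found in 9.76% of all genes, and in 15.1% of genes with a span of up to 14.1 kb. Polr2e did not separate the groups. Their upstream sequences are shown first, because the 5 genes serve the same enzymes while 4 of them separated the groups and 1 did not. Of the 29 genes, 23 have a start in the RefSeq promoter table (GRCm38.p6, the build that mm10 names), and Polr2k is not among them. Each stretch runs 5′ to 3′ on the strand of the gene, ends at the last base before the listed span of the gene, and stops short of any other listed gene, so that only bases between genes are printed. Capitals mark matches, on either strand, to the GC box core GGGCGG (bound by the Sp1 family) or the ETS core CCGGAAG. Polr2l is read on the minus strand at chr7:141475154-141475235, Polr2f on the plus strand at chr15:79141252-79141324, Polr2h on the plus strand at chr16:20717747-20717825, and Polr2e on the minus strand at chr10:80039660-80039909.
Polr2l: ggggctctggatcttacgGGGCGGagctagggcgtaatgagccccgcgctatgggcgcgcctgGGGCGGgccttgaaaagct
Polr2f: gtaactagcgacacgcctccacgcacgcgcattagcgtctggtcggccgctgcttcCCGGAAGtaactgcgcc
Polr2h: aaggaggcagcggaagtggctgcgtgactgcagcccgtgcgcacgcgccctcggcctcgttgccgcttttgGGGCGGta
Polr2e: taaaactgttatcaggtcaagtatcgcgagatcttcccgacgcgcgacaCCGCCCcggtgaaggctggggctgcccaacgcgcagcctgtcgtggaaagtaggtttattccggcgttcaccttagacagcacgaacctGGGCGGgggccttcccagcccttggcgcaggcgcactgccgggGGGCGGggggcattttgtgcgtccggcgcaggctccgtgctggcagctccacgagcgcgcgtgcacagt

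The printed stretches hold 2 GC box cores for Polr2l, 1 for Polr2h, 3 for Polr2e and none for Polr2f, which has 1 ETS core instead. Their lengths differ, with 82 bases for Polr2l, 79 for Polr2h, 250 for Polr2e and 73 for Polr2f. Over 250 bases Polr2l has 3 GC box cores, as many as Polr2e. The GC box core occurs before Polr2l and Polr2h, whose groups were apart, and before Polr2e, whose groups overlapped. These are matches of letters and say nothing of binding, and their part in the RNA levels was not tested.

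Polr2l encodes a small zinc-binding subunit of the core. Its normalized counts were 1288.7, 1601.5 and 1626.3 in the WT libraries and 446.8, 834.3 and 539.0 in the cKO libraries. Every cKO library lay below every WT library. The means were 1505.5 ± 188.2 and 606.7 ± 202.4 (SD, n = 3 each), a 2.55-fold fall (log2 change -1.35, SE 0.22, limma adjusted p = 0.0421). The authors' deposited table gave Polr2l a log2 change of -1.23 with an adjusted p of 1.35e-05. The limma call did not hold without WT replicate 2 (adjusted p = 0.112), WT replicate 3 (0.216), cKO replicate 1 (0.206) or cKO replicate 3 (0.177), while the log2 change stayed between -1.61 and -1.16 over the 6 fits that left out a library. It was also lost with quantile normalization (limma adjusted p = 0.0682) and without the mean-variance trend (limma adjusted p = 0.446).

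Polr2h encodes another small shared subunit, on the outer side of the core. It had 415.7, 562.4 and 616.6 normalized counts in WT and 272.4, 390.3 and 269.5 in cKO libraries. The groups did not overlap, though WT replicate 1 and cKO replicate 2 lay close to each other. The log2 change was -0.77 and did not pass in limma (adjusted p = 0.177), while the authors' deposited table gave an adjusted p of 0.0324.

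Polr2f, whose product sits at the base of the polymerase clamp, had 899.9, 1150.3 and 1035.2 normalized counts in WT and 689.6, 622.0 and 688.7 in cKO libraries. The cKO libraries were close to each other and all below WT. The log2 change of -0.62 missed the threshold in limma (adjusted p = 0.141) and passed in the authors' deposited table (adjusted p = 0.0165). Polr2k, a small zinc-binding subunit, showed 392.1, 449.4 and 508.6 in WT and 265.5, 299.7 and 298.4 normalized counts in cKO libraries. Again the groups were apart, with a log2 change of -0.64 (limma adjusted p = 0.201; 0.0457 in the authors' deposited table). Polr2k overlaps Spag1 in the annotation, and with the strand of the counting not given, reads of such pairs cannot be told apart.

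Polr2e, which encodes a shared subunit that contacts incoming DNA, had 1406.0, 1359.0 and 1478.0 normalized counts in WT and 1448.0, 1204.6 and 1383.5 in cKO libraries. These groups overlapped, with a log2 change of -0.08 (SE 0.15, limma adjusted p = 0.878). Whether Polr2e differs from the other shared subunits in its change was not tested.

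**Figure D2:**
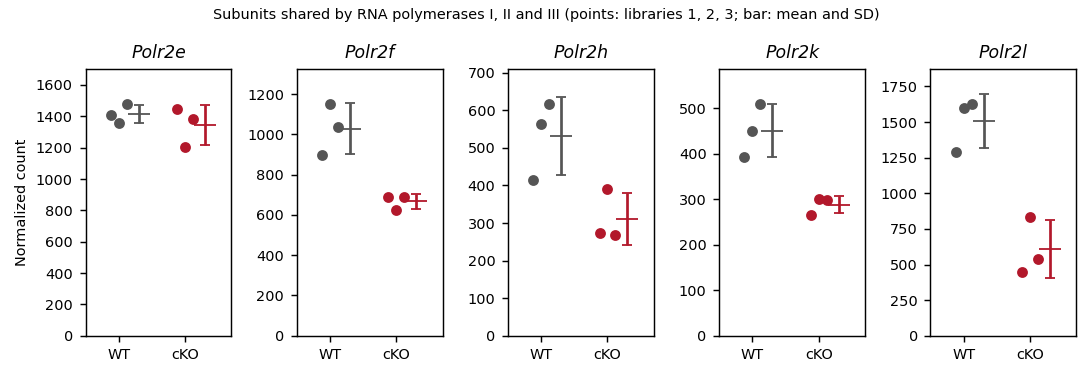
Normalized counts of the 5 subunits shared by the 3 nuclear polymerases. Points are libraries, the wide bar is the mean and the error bar the SD (n = 3 each); each panel has its own axis from 0. In Polr2f, Polr2h, Polr2k and Polr2l the WT and cKO points do not overlap, and in Polr2e they do.

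Polymerases I and III share a pair of assembly subunits, encoded by Polr1d and Polr1c; only the first separated the groups, and the difference between the genes was not tested. Polr1d had 2033.0, 2110.1 and 2218.5 normalized counts in WT and 1416.0, 1701.4 and 1438.0 in cKO libraries. All WT values were higher, with a log2 change of -0.49 (limma adjusted p = 0.183; 0.0457 in the authors' deposited table). Its partner Polr1c had 1498.0, 996.6 and 1179.2 normalized counts in WT and 1172.3, 1260.1 and 1110.6 in cKO libraries, with overlap and a log2 change of -0.03 (limma adjusted p = 0.959). Polr1d overlaps the pseudogene Rps10-ps4.

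The pairs of large subunits that form each active centre gave overlapping groups in all 6 genes, and 0 of the 6 were called. Most genes did likewise. All WT values lay above all cKO values in 9.76% of all genes, and the reverse held in 7.4%. In limma 0.172% of all genes were called lower and 0.0332% higher. Polr2a, the catalytic subunit of polymerase II that carries the heptad-repeat tail, had 1374.8, 714.0 and 892.1 normalized counts in WT and 1762.9, 870.2 and 2241.3 in cKO libraries. cKO replicates 1 and 3 were the highest, but cKO replicate 2 lay within the WT range, and the log2 change of 0.66 did not pass (SE 0.31, limma adjusted p = 0.424). The sequence before Polr2a is shown to set this large subunit beside the small ones above. It lies on the minus strand at chr11:69758634-69758883 (GRCm38.p6, RefSeq). Capitals mark 3 GC box cores and a TATA box match, TATAAA.
Polr2a: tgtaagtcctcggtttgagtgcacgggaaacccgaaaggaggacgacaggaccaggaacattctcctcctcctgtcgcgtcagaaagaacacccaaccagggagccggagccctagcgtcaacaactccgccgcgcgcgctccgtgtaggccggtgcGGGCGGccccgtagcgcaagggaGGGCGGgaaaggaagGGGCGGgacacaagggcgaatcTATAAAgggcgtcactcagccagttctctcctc

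Polr2b, the second large subunit of polymerase II, had 763.1, 435.8 and 567.4 normalized counts in WT and 782.5, 692.2 and 755.7 in cKO libraries. The log2 change was 0.37 (limma adjusted p = 0.506), and WT replicate 1 lay among the cKO libraries. Of the polymerase I pair, Polr1a had 1327.5, 435.7 and 632.8 normalized counts in WT and 871.1, 578.8 and 796.6 in cKO libraries. All 3 cKO libraries lay inside that wide WT range, and the log2 change was 0.04. Polr1b had 598.0, 370.1 and 581.7 normalized counts in WT and 608.4, 367.8 and 574.3 in cKO libraries, with a log2 change of 0.00. Of the polymerase III pair, Polr3a had 304.4, 218.6 and 394.8 normalized counts in WT and 370.9, 232.4 and 322.5 in cKO libraries, with a log2 change of 0.03. Polr3b had 508.9, 353.2 and 427.1 normalized counts in WT and 497.6, 327.2 and 460.3 in cKO libraries, with a log2 change of -0.01. In each of these 6 genes replicate 2 was the lowest library in WT and also in cKO. Polr2b overlaps Igfbp7, Polr1a overlaps Gm19078 and Gm26628, and Polr3b overlaps Gm17249.

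Summed, the 6 large subunits had 4876.6, 2527.4 and 3495.9 normalized counts in WT and 4893.4, 3068.7 and 5150.7 in cKO libraries, which overlapped. The other 23 genes summed to 15784.3, 15584.5 and 16737.3 in WT and 12208.0, 12759.4 and 12576.9 in cKO libraries, with a gap between the groups. The medians of the log2 change were 0.04 over the 6 and -0.39 over the 23. The 6 genes also span more of the chromosome, from 24.6 to 104.9 kb. All the subunit genes of up to 14.1 kb are among the 23. The part of gene span in this contrast was not tested. The ratio of Polr2l to Polr2a was 0.937, 2.24 and 1.82 in WT and 0.253, 0.959 and 0.24 in cKO libraries. That ratio compares counts that are not divided by gene length, and WT replicate 1 and cKO replicate 2 overlapped.

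The smaller subunits of polymerase II mostly had negative log2 changes, none of them past the threshold. Polr2c, a scaffold subunit, had 702.1, 822.2 and 728.2 normalized counts in WT and 494.3, 587.3 and 447.6 in cKO libraries (log2 change -0.56, limma adjusted p = 0.216). Polr2g, of the stalk, had 1197.4, 1317.2 and 1104.1 normalized counts in WT and 841.3, 926.8 and 850.3 in cKO libraries (log2 change -0.46, limma adjusted p = 0.242). In both, the groups were apart. Polr2d, the stalk partner of Polr2g, had 525.6, 603.4 and 550.4 normalized counts in WT and 448.4, 394.3 and 449.2 in cKO libraries (log2 change -0.38, limma adjusted p = 0.42). Polr2i, a zinc-binding subunit that helps proofreading, had 232.8, 271.1 and 234.5 normalized counts in WT and 171.3, 177.6 and 214.5 in cKO libraries (log2 change -0.39, limma adjusted p = 0.514). In these 4 all WT values lay above all cKO values, which was so for 9.76% of all genes. Among genes with a span of up to 14.1 kb the share was 15.1%. Polr2j, the partner of Polr2c, had a log2 change of 0.08 and the regulator Polr2m of -0.10, both with overlap. Polr2c overlaps Dok4, and Polr2i overlaps Ovol3 and Tbcb.

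Among the 10 subunits of polymerase III alone, 6 log2 changes were negative and 4 positive, with a median of -0.02. Polr3k, a small subunit that acts in termination and RNA cleavage, was 1 gene of the 10 whose WT values all lay above the cKO values, a share near the 9.76% of all genes. It had 456.7, 459.3 and 418.3 normalized counts in WT and 332.0, 296.8 and 328.1 in cKO libraries (log2 change -0.48, limma adjusted p = 0.319). Polr3f, of the initiation subcomplex, had the highest log2 change of the 29 at 0.71, from 128.2 ± 21.3 to 216.9 ± 77.0, but the cKO libraries ranged from 141.9 to 295.8 and it did not pass (limma adjusted p = 0.366). Polr3c, its partner in that subcomplex, had a log2 change of 0.09.

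The paralogs Polr3g and Polr3gl encode alternative forms of the same position in the enzyme. Polr3g averaged 240.2 ± 86.8 and 145.5 ± 16.8, with a log2 change of -0.65 (limma adjusted p = 0.402), and Polr3gl averaged 70.8 ± 15.1 and 51.1 ± 15.9, with a log2 change of -0.48 (limma adjusted p = 0.647). Both overlapped between groups. Polr3d and Polr3e, and Polr1e of polymerase I, had log2 changes between -0.05 and 0.13.

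The mitochondrial polymerase gene Polrmt had 511.2, 381.0 and 480.7 normalized counts in WT and 234.1, 363.7 and 267.9 in cKO libraries. All WT values were higher, although WT replicate 2 and cKO replicate 2 were close. The means were 457.7 ± 68.1 and 288.6 ± 67.2 (SD, n = 3 each), with a log2 change of -0.68 (SE 0.22, limma adjusted p = 0.240; 0.0742 in the authors' deposited table).

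**Figure D3:**
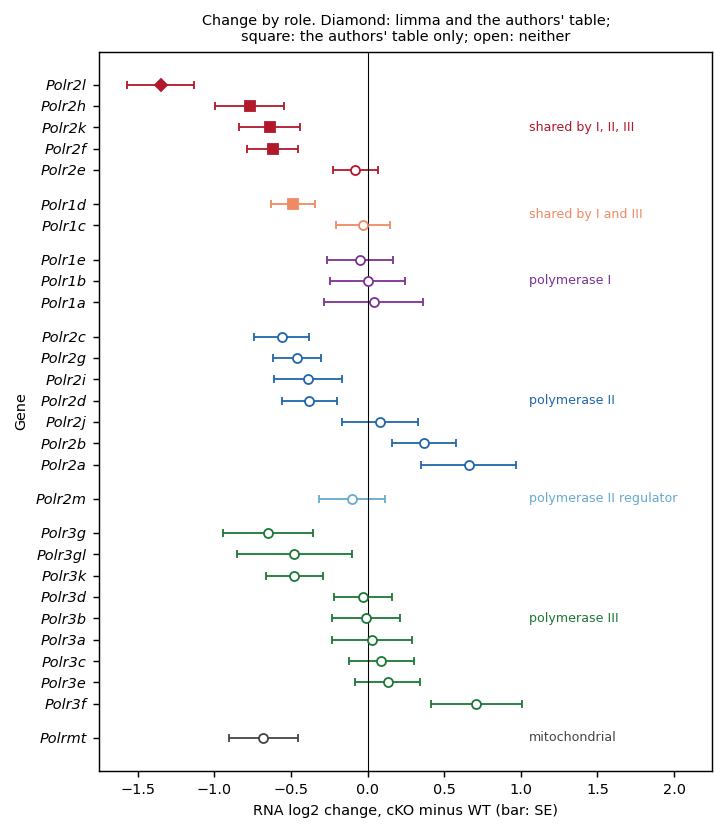
RNA log2 change, cKO minus WT, of 28 of the subunit genes by role, with the SE from limma as bars. The diamond is Polr2l, called in limma and in the authors' table; the squares Polr2f, Polr2h, Polr2k and Polr1d were called in the authors' table only. The 6 large catalytic subunits lie at or above -0.01.

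The authors' deposited table gave 28 of the genes an adjusted p and called 5 of them lower, Polr2l, Polr2f, Polr2h, Polr2k and Polr1d, and none higher. Of all genes with an adjusted p there, 3.9% were called lower and 1.78% higher. All 5 are shared between polymerases. That table and the limma fit use the same libraries.

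Log2 changes also went with the length of the gene on the chromosome. Across the 29 genes Spearman's rho between the log2 change and gene span was 0.44, and across the 15845 tested genes with a span it was 0.12. These are correlations across genes, which share libraries and are not independent. The 7 subunit genes in the shortest of 5 equal classes by span (up to 5.0 kb) had a median log2 change of -0.39, where all genes in the class had -0.03. The 10 in the next class, up to 14.1 kb, had -0.42 against -0.02. The 12 longer ones, in the upper 3 classes, had medians from 0.00 to 0.03, against 0.04 to 0.15 for all genes. All WT values lay above all cKO values in 4 of the 7 and in 6 of the 10. In the shortest 2 classes together, that was so for 15.1% of all genes. With the trend on span removed from each library, rho across the 29 was 0.22 and Polr2l still passed, at a log2 change of -1.27. Whether span or RNA quality had a part in these changes, that of Polr2l included, was not tested.

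**Figure D4:**
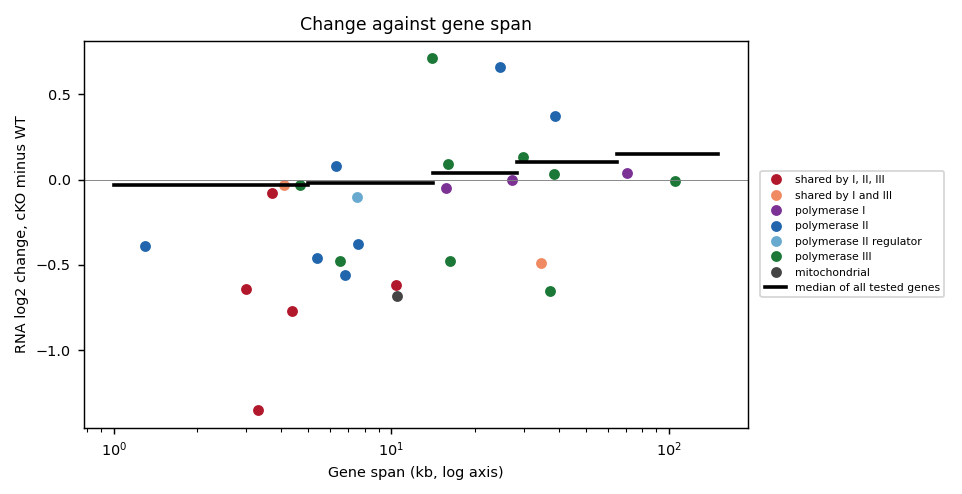
RNA log2 change, cKO minus WT, against gene span in kb on a log axis for 28 of the subunit genes, coloured by role. Black lines are the medians of all tested genes in 5 equal classes by span; the first and last lines are drawn only over the range of the plot. Most genes under 14.1 kb lie below the lines.

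The factors that work with the polymerases were read from 9 lists, 146 of whose 150 genes were tested. Of these 2 were called lower, the polymerase III transcripts Bc1 and Rpph1, and 0 higher, where 0.172% and 0.0332% of all genes were. Of the 146, 77 had a negative log2 change, against 45% of all genes, and the median was -0.06, against 0.06 over all genes. The authors' deposited table gave 139 of these genes an adjusted p and called 5 lower and 2 higher. Of all genes with an adjusted p there, 3.9% were called lower and 1.78% higher. Bc1, a short RNA known from neurons, had 3070.3, 7006.9 and 5884.3 normalized counts in WT and 1751.5, 2032.9 and 1365.6 in cKO libraries, a 2.96-fold fall (limma adjusted p = 0.0421). Rpph1, the RNA of ribonuclease P, had 365.6, 522.3 and 555.5 in WT and 169.8, 214.8 and 119.1 in cKO libraries, a 2.89-fold fall (limma adjusted p = 0.0438). The groups were apart in both. Of the other polymerase III transcripts, Rn7s2 (log2 change -0.14) and Rmrp (0.67, with means of 16.9 and 25.6) overlapped. How short RNAs without a poly(A) tail were kept in these libraries was not given in the sources used here.

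The 4 subunits that carry other symbols (Znrd1, Twistnb, Cd3eap and Crcp) gave 0 calls, with Twistnb at -0.43 and Cd3eap at -0.27. Polymerase III factors had a median log2 change of 0.14 over 17 genes, with Gtf3c1, which binds internal promoters, at 0.68 and the La protein gene Ssb at -0.31. Assembly factors had 13 negative of 16 (45% over all genes) and a median of -0.24, with the prefoldin Pfdn6 at -0.45 and the ATPase Ruvbl1 at -0.47. Polymerase I factors centred on 0.01 over 7 genes, with Taf1d at -0.38 and Taf1a at -0.27.

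Among 31 general factors of polymerase II, the median was -0.12, and Gtf2h5, a small subunit of the repair and initiation factor TFIIH, was at -0.73 with all WT values higher (limma adjusted p = 0.0865; 0.00204 in the authors' deposited table). Gtf2f2 was at -0.48. Among 30 Mediator genes, Med15 was at 0.83 and Med30 at -0.68, both without overlap (limma adjusted p = 0.129 and 0.177; 0.014 and 0.0313 in the authors' deposited table). Among 26 elongation factors, Eloc was at -0.71 and the cyclin Ccnt2 at 0.66, again without overlap (limma adjusted p = 0.119 and 0.171; 0.0121 and 0.0269 in the authors' deposited table). Of 9 mitochondrial transcription factors, Tfam was at -0.49 with overlap, and Mterf1b, which has a near-identical copy, was listed at 0 in 2 WT libraries. None of the genes named in this paragraph passed in limma.

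Open chromatin was present in all 6 ATAC libraries at the start of each of the 23 genes with a listed start. A region, that is, overlapping peaks of the 6 lists merged, lay within 1 kb of the start in all 6 lists for all 23, where 80.5% of 11752 genes with a listed start had such a region. There were 31 regions, since some genes, such as Polr2m, had 2. For 6 genes without a listed start, among them Polr2d, Polr2g, Polr2k, Polr3a and Polr3d, both gene ends were used, and each of the 6 had such a region at an end. The height of the 31 regions, the tag count of the tallest peak scaled by the authors to 10000000 tags per library, had a median of 93.6, against 33.2 over the 33531 regions found in all 6 lists. Those 33531 are not limited to gene starts, and no median over the starts of other genes was taken. In 11 of the 31 regions another listed gene also starts, so the height is not that of a single promoter.

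Few of these regions passed the test, and their number depended on the scaling. After quantile normalization, 2 of the 31 regions were called higher in cKO and 0 lower, where 3.67% and 4.33% of all regions were. At Polr1b, which encodes the second large subunit of polymerase I, the region chr2:129100571-129101689 (mm10) had heights of 60.4, 29.5 and 53.7 in WT and 61.4, 72.2 and 64.3 in cKO ATAC libraries as deposited. WT replicate 2 was far lower than the rest and WT replicate 1 lay close to the cKO libraries. The log2 change was 0.65 after quantile normalization (limma adjusted p = 0.0472), and 0.48 without WT replicate 2 (limma adjusted p = 0.0709). At Polr3c, the region chr3:96726859-96728830 had 185.7, 98.5 and 172.7 in WT and 242.1, 239.4 and 232.3 in cKO ATAC libraries, without overlap (log2 change 0.38, limma adjusted p = 0.0405). Without WT replicate 3, 4 regions were called higher, and with any of the 3 cKO libraries left out 0 were. The starts of Gm46764 and Rnf115 lie in the Polr1b and Polr3c regions. The RNA log2 changes of these genes were 0.00 and 0.09.

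The bases before these starts, chosen because their regions passed, are given from chr2:129100944-129100969 on the plus strand and chr3:96727499-96727596 on the minus strand (GRCm38.p6, RefSeq), with GC box cores in capitals. Each stretch ends where the listed span of the gene begins, upstream of the start in the promoter table.
Polr1b: gaccagtgtgGGGCGGgccgaacaag
Polr3c: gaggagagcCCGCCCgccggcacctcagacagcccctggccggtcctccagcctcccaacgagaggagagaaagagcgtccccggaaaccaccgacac

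At Polr2l, whose RNA fell, the region chr7:141474174-141477700 had heights of 88.7, 51.3 and 80.7 in WT and 88.6, 78.4 and 97.3 in cKO ATAC libraries. The groups overlapped and the log2 change was 0.26 (limma adjusted p = 0.23). At Polr2f, Polr2h, Polr2k and Polr1d it was 0.09, -0.05, -0.07 and -0.09 after quantile normalization, and none of these 4 passed. With library medians subtracted in place of quantile normalization, Polr2l was at 0.60 and passed (limma adjusted p = 0.00506), as did Polr2f at 0.38 (limma adjusted p = 0.0424). The signs at Polr2h and Polr1d then turned, to 0.76 and 0.63, and both passed (limma adjusted p = 6.69e-05 and 0.000288). Polr2k stayed negative, at -0.12, and did not pass (limma adjusted p = 0.714). At Polr2e, with overlapping RNA, the log2 change was 0.44 with quantile normalization (limma adjusted p = 0.117). With medians subtracted it was 0.84 (limma adjusted p = 0.000822). At Polrmt the log2 change was 0.09 with quantile normalization. Across the 29 genes Spearman's rho between the RNA and ATAC log2 changes was 0.32, over genes that share libraries.

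As deposited, 7 of the 31 regions had all cKO heights above all WT heights (13.6% of all regions) and 2, at Polr2c and Polr2k, the reverse (21.8% of all regions). ATAC WT replicate 2 was the lowest of the 6 libraries in 28 of the 31 regions and in 44.8% of all regions, and 25.22% of its tags lay in peaks, against 34.87% to 38.28% in the other 5. Subtracting each library's median called 22 of the 31 higher and 0 lower, where 28% of all regions were called higher and 5.48% lower. No scaling called 1 higher and 0 lower, where 1.37% and 9.03% of all regions were. The median log2 change of the 31 regions was 0.13 with quantile normalization, 0.62 with medians subtracted and 0.31 with no scaling, and that of all regions 0.02, 0.16 and -0.15. In 5 equal classes of all regions by height, the median log2 change of the tallest class, which holds 15 of the 31, was 0.06 with quantile normalization and 0.66 with medians subtracted, and that of the lowest class 0.03 and -0.05.

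**Figure D5:**
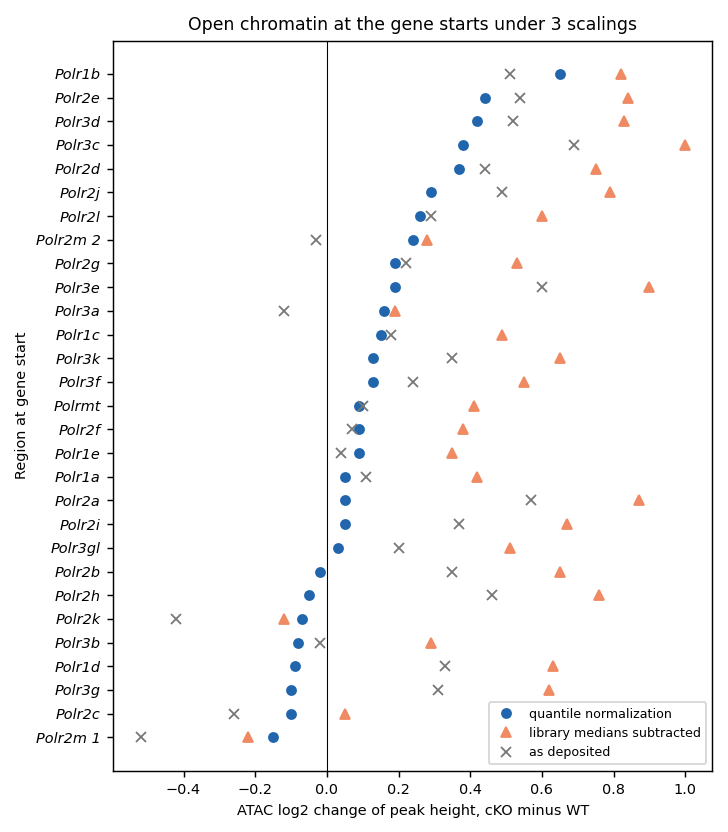
ATAC log2 change of height, cKO minus WT, at 29 of the regions near starts of subunit genes, under 3 scalings. Circles are quantile normalized, triangles have library medians subtracted and crosses are as deposited; a number after a name separates the 2 regions of a gene. The circles lie mostly near 0, while most triangles lie to their right.

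Within 5 kb of a start, 1 further region was called lower, chosen here after its value was seen. It lies 4386 bp from the start of Polr1d at chr5:147069455-147072960 and had heights of 66.4, 49.9 and 74.3 in WT and 23.1, 44.8 and 17.5 in cKO ATAC libraries, without overlap. The log2 change was -1.03 (limma adjusted p = 0.0345), and 0.01 when tags were divided by peak length (limma adjusted p = 0.984).

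Upstream of the start, the 23 genes with a listed promoter were rich in G and C. The median over 250 bases was 61.2%, against 52.0% over 27025 listed genes. That set, called all genes in this paragraph, was not limited to genes tested for RNA, as the 23 were. The GC box core GGGCGG was found on either strand in 14 of the 23 (60.9%, against 32.9% of all genes), and the ETS core CCGGAAG in 6 (26.1% against 7.05%). CCAAT was found in 6 (26.1% against 34.5%) and TATAAA in 3 (13% against 13%). The letters TGACNNNGC, the core of the antioxidant response element that NRF2 is known to bind, were found in 2 of the 23, Polr2f and Polr3b (8.7%, against 10.1% of all genes). The site of NRF1, a different factor known for mitochondrial genes, was found in none of the 23 and in 0.781% of all genes. The counts cover all 250 bases, more than the stretches printed above, and the match of Polr2f lies outside its printed stretch. Motifs were searched on both strands without regard to overlap between them, and a match is not evidence of a bound site.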

How the data were processed

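Values of the deposited RNA table are a signal, gene counts that the authors normalized; 0.18% of those above 0 came within 0.001 of a whole number, and whole reads could not be recovered. Per the submitters' processing notes the tools were Bowtie2 2.3.5.1, HOMER 4.11, STAR, RSEM 1.3.3, edgeR and DESeq2, with the mm10 build; settings and strand were not given in the sources used here. The authors' deposited log2 fold change, p-value and adjusted p-value are their own. For ATAC each library has its own HOMER peak list. In these, per the file headers, tag counts are a signal scaled to 10000000 tags, the peak score is a deposited score, the fold change over expected positions is a deposited ratio, and peaks passed a Poisson p-value of 0.001. Libraries held 13149952 to 18327127 tags and 54133 to 75017 peaks.

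The 29 genes and the pathway and marker lists were chosen with earlier results of these data known. Genes with a mean of at least 10 were tested as log2(value + 1), cKO minus WT, in R 4.3.3 using limma 3.58.1 and its trended eBayes, with Benjamini-Hochberg adjustment over all genes and a threshold of 0.05. Peaks sharing at least 1 bp were merged (Python 3.11.15, pandas 2.3.3, numpy 2.4.6, scipy 1.17.1, matplotlib 3.10.9). Log2 of height plus 1 at regions in all 6 lists was quantile normalized and tested likewise; quantile normalization was preferred because in earlier results of these data subtracting medians had left a change that differs with height; medians by class of height are given with the ATAC results. Fits were also run on simulated data with independent noise for each gene or region. Those data hold no span trend and no difference in quality between libraries, so the runs do not bear on single calls here.

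Values per library were given for genes called in either table or without overlap, the 2 large subunits of each nuclear polymerase, the 5 shared subunits and Polrmt; of each pathway list, called genes and up to 2 others with the smallest p were named. 1 of the 29 genes is in the counts and sums but is not reported here by name or drawn. Protein length, which was planned beside gene span, was not used here. Spans were matched for 87.7% of tested genes. Symbols were matched to RefSeq (GRCm38.p6). Alternatives were other pseudocounts (0.5 and 5), filters, scalings, variance models, library weights, a block on the replicate number, each library left out, removal of the span trend, and a 5 kb window.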

Additional observations from a re-analysis of the deposited data

How the results depend on the processing

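The median log2 change of the 29 genes was negative in every fit that left out a library, from -0.30 to -0.08. The count of subunit genes called lower was 1 and became 0 with quantile normalization (Polr2l adjusted p = 0.0682), 0 without the mean-variance trend (0.446), 8 with quality weights (where cKO replicate 1 weighed 7.428 and 2 genes, Polr2a and Polr3f, were called higher) and 5 in the authors' deposited table; it was 0 to 1 over the 6 fits that left out a library. Other pseudocounts, filters, rescaling, removal of the span trend and the replicate block kept it at 1, Polr2l. Signs turned for Polr3a (-0.04) and Polr2j (-0.01) with quantile normalization, and for Polr3d (0.04), Polr3a (-0.04), Polr2e (0.00), Polr1c (0.04) and Polr1a (-0.07) with the span trend removed. They turned for Polr3b (0.19) and Polr1b (0.18) with weights, and for Polr1b (0.00) and Polr1a (-0.02) in the authors' table. With a library left out they turned in some fits for Polr3b (-0.14 to 0.17), Polr1c (-0.17 to 0.12), Polr1b (-0.22 to 0.23), Polr3e (-0.01 to 0.26), Polr3c (-0.06 to 0.26), Polr3a (-0.19 to 0.23), Polr1a (-0.31 to 0.49), Polr2m (-0.30 to 0.17), Polr2j (-0.06 to 0.31), Polr1e (-0.16 to 0.07), Polr3d (-0.10 to 0.01) and Polr2e (-0.13 to 0.00). For ATAC the count called higher was 2 and became 22 with medians subtracted, 1 with no scaling, 0 per kb of peak, and 0 to 4 with a library left out; 1 was lower within 5 kb. Of the 31 regions, 6 turned sign with medians subtracted, 6 with no scaling, 9 per kb of peak, 1 with summed tags and 0 with cyclic loess. Signs turned with medians subtracted at Polr3g (0.62), Polr3b (0.29), Polr2h (0.76), Polr2b (0.65), Polr1d (0.63) and Polr2c (0.05), with no scaling at Polr3g (0.31), Polr2m region 2 (-0.03), Polr3a (-0.12), Polr2h (0.46), Polr2b (0.35) and Polr1d (0.33), and with summed tags at Polr2f (-0.12). Per kb those named here were Polr3g (0.42), Polrmt (-0.20), Polr3b (0.04), Polr2a (-0.15), Polr2k (0.15), Polr2f (-0.20), Polr3k (-0.33) and Polr2i (-0.12), and with a library left out, over the 19 regions of the genes named by the rule, signs turned at Polr2b (-0.09 to 0.02), Polr2k (-0.15 to 0.05), Polr3k (-0.04 to 0.30) and Polr1a (-0.06 to 0.20). The cause of these changes was not tested. Deviations of same-numbered WT and cKO libraries correlated with r of 0.12, 0.21 and -0.06 for RNA and -0.02, -0.01 and 0.00 for ATAC. Not every library correlated best with its own number. Whether the number marks a pair or a batch was not given in the sources used here, and these values do not settle it. The replicate block left 1 gene lower in RNA and 1 region higher in ATAC (Polr1b limma adjusted p = 0.0599). The depth in reads of the RNA libraries is unknown, and 3 libraries per group limit the precision.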
